A study of Mus musculus with 11 samples.

Results

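The genes of the NMDA and AMPA receptor subunits were examined in cerebral cortex of 5xFAD mice with and without Abi3. The set held 10 genes chosen by name, 6 for NMDA receptor subunits (Grin1, Grin2a, Grin2b, Grin2c, Grin2d and Grin3a) and 4 for AMPA receptor subunits (Gria1, Gria2, Gria3 and Gria4), among 53700 gene identifiers in the count tables. All 10 had enough reads to be among the 17626 genes tested. The set, and the question of Grin2c against the other subunits, were drawn up with the genotype contrast of these same animals known, so the genotype differences of the 10 genes are given as a description.

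Expression was measured by QuantSeq, in which an oligo(dT) primer places each read near the 3′ end of a polyadenylated transcript, in 11 female mice aged 8 months. One group of 6 had intact Abi3 (Abi3_WT) and the other group of 5 lacked it (Abi3_KO). Abi3 encodes a component of the WAVE complex, which controls branching of the actin cytoskeleton, and in brain it is enriched in microglia. Every animal, the Abi3_WT group included, carried the 5xFAD transgenes, which are driven by the neuronal Thy1 promoter and cause amyloid deposition, so no animal without amyloid pathology entered these comparisons. The Abi3_KO allele was a germline null from a C57BL/6N line, which removes the gene from every cell type and not from microglia alone. The labels give the strain as C57BL/6, whereas the study's methods describe a cross to 5xFAD mice on a B6SJL background in which the experimental mice were heterozygous for a Trem2 variant of the SJL strain.

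Both receptor classes are cation channels of 4 subunits opened by glutamate at excitatory synapses. AMPA receptors carry the fast current, whereas NMDA receptors open only when glutamate, glycine or D-serine, and depolarization of the membrane coincide, and let in calcium that drives synaptic plasticity. GluN1 is present in every NMDA receptor, and the GluN2 partner sets its kinetics, its block by magnesium and its location. In forebrain, GluN2A and GluN2B are the main partners of principal neurons, GluN2D is found in interneurons, and GluN2C is best known from cerebellar granule cells and is also found in astrocytes and some thalamic and cortical cells.

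The subunits differ at 1 codon of the pore loop that governs calcium passage, and this codon separates the classes in the mouse genome. It is shown for 9 subunits, in capitals within 27 coding bases, 5′ to 3′ on the coding strand, from the Ensembl canonical transcript in GENCODE M39 (GRCm39).
Grin1: ggcgtcctgctcAACtctggcattggg
Grin2a: ggcctggtcttcAACaattctgtgccc
Grin2c: gcactggtcttcAACaactctgttccc
Grin2d: gccctggtgttcAACaactccgtgcca
Grin3a: gcccttctgtttGGCagaacagcagcc
Gria1: ggggccttcatgCAGcaaggatgtgac
Gria2: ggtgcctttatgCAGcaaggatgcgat
Gria3: ggtgcttttatgCAGcaaggatgtgat
Gria4: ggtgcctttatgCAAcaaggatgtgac
The codon reads AAC, asparagine, in 4 of the subunits shown, Grin1, Grin2a, Grin2c and Grin2d, and GGC, glycine, in Grin3a. It reads CAG in 3 AMPA subunits and CAA in Gria4, both glutamine. In Gria2 this glutamine codon is the one that RNA editing is known to recode to arginine, which closes the channel to calcium. Within these 27 bases Grin2c shared 23 with Grin2a, 22 with Grin2d, 10 with Grin1 and 13 with Grin3a. The AMPA subunits shared 23 to 25 bases with each other. The 27 bases of Grin2c lie in exon 11 of 15 at chr11:115144677-115144703, on the minus strand. Those of Gria2 lie in exon 11 of 16 at chr3:80614206-80614232, also on the minus strand. Reads placed at the 3′ end do not cover the pore loop, so the counts carry no information on editing.

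Abi3 itself (chromosome 11, 95720900 to 95733302) had 10 to 38 reads in the Abi3_WT animals. It had 0 reads in 4 Abi3_KO animals and 2 in the other, so every library followed its label. The libraries held 3202310 to 5501958 reads in genes, and 3 counts, the upper limit that a count of 0 allows, amounted to 0.545 to 0.937 CPM (reads rescaled to a common library size). Counts were of reads and not of distinct molecules, so such limits cover counting error only. Markers of excitatory neurons summed to 2407 to 3003 normalized counts (counts divided by each library's size factor) in Abi3_WT and 2574 to 3089 in Abi3_KO, those of interneurons to 1990 to 2258 and 1706 to 2267, and those of astrocytes to 20038 to 24499 and 19996 to 22229. The 6 cerebellar granule cell markers summed to 61.3 to 172 normalized counts in Abi3_WT and 80.8 to 173 in Abi3_KO, with Zic1 at a mean of 83.6 (34 to 169 reads per library), Cbln1 at 8 to 48 reads and Zic2 at 8 to 28. Gabra6, Fat2 and Cbln3 had 0 to 2 reads in 10 of the libraries and 2, 4 and 22 reads in Abi3_KO replicate 1. Choroid plexus markers stood apart in 3 libraries, 1 Abi3_WT and 2 Abi3_KO, at 3357 to 5233 normalized counts against at most 1344 in the other 8.

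Across all 11 animals the AMPA subunit Gria2 gave the most reads and Grin2d the fewest. In normalized counts not divided by length, the order was Gria2 (3744 ± 291, SD, n = 11), Grin2b (2663 ± 171), Gria1 (1439 ± 147), Gria3 (1258 ± 155), Grin2a (979 ± 103.3), Grin1 (973 ± 54.6), Gria4 (372 ± 40.2), Grin3a (208 ± 45.4), Grin2c (85.5 ± 25.3) and Grin2d (16.1 ± 6.13). Neighbours that were not separated beyond their spread were Gria1 and Gria3, ordered this way in 8 of 11 animals, and Grin2a and Grin1, ordered this way in 7. Gria2 was above Grin2b, and Gria3 above Grin2a, in all 11 animals, although their ranges overlapped. From Grin1 downward, each gene's range lay wholly above that of the next.

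Per kilobase of exon the order was Gria1 (176 ± 17.9 normalized counts per kb), Gria2 (136 ± 10.6), Grin2b (105 ± 6.72), Gria3 (98.9 ± 12.2), Grin1 (87.8 ± 4.93), Grin2a (54.6 ± 5.76), Gria4 (20.7 ± 2.23), Grin3a (15.8 ± 3.45), Grin2c (7.67 ± 2.27) and Grin2d (2.05 ± 0.78). On this scale the ranges of Grin2b and Gria3, Gria3 and Grin1, and Gria4 and Grin3a overlapped, and the first gene of these pairs was higher in 8, 9 and 8 of 11 animals. Gria1 was above Gria2, and Gria2 above Grin2b, in all 11 animals although their ranges overlapped. Exonic length was that of all annotated exons of a gene together, 8200 bases for Gria1 and 27443 for Gria2. Gria1 stood above Gria2 only after division by these lengths. The lowest 4 genes were the same on both scales. A 3′ method yields reads per transcript and not along its length, and exonic length includes 3′ untranslated regions of unequal length, 408 bases in the canonical Grin2c transcript and 9932 in that of Grin2a, so both scales are given.

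**Figure D1:**
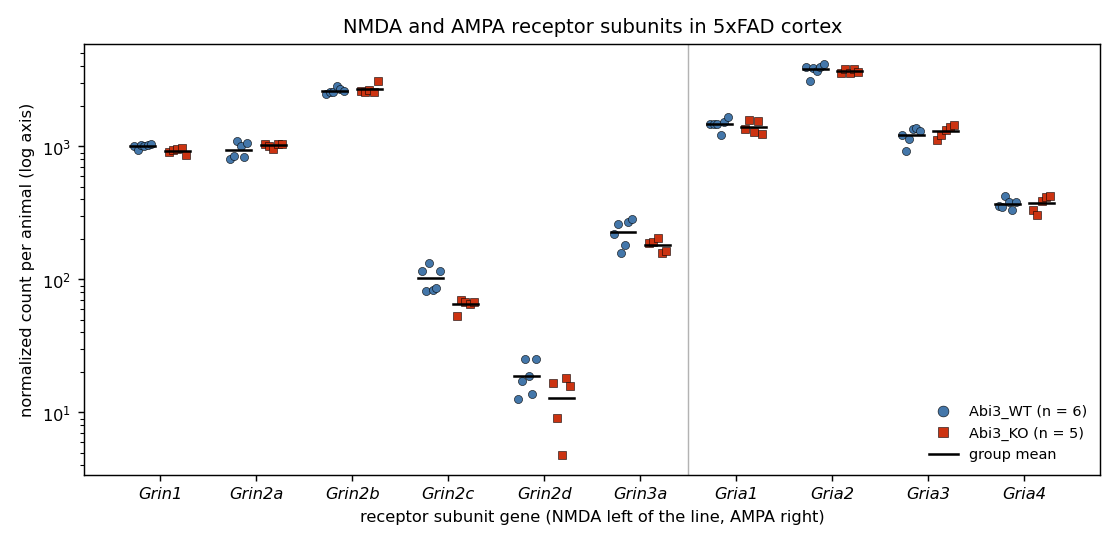
Normalized counts of the 10 subunit genes on a log axis, with 1 point per animal (circles, 6 Abi3_WT; squares, 5 Abi3_KO) and a bar at each group mean. The genes run from about 16.1 (Grin2d) to 3744 (Gria2) on average, and Grin2c is the gene whose groups do not overlap.

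Among the obligatory and main neuronal NMDA subunits, the genotypes overlapped. Grin1 (chromosome 2, 25181186 to 25209226), which encodes GluN1, ranged from 943 to 1037 normalized counts in Abi3_WT with a median of 1017, and was 910, 942, 962, 977 and 867 in the Abi3_KO animals. Of the Abi3_KO animals, 3 were below the lowest Abi3_WT animal and 2 were in the lower part of the Abi3_WT range, and the log2 fold change was -0.11 (SE 0.062). Grin2a (chromosome 16, 9385762 to 9813424), which encodes the GluN2A partner that rises during postnatal development, ranged from 806 to 1099 in Abi3_WT with a median of 931, and was 1052, 1011, 957, 1040 and 1036 in Abi3_KO. The Abi3_KO values lay within the Abi3_WT range, with a log2 fold change of 0.11 (SE 0.0879). Grin2b (chromosome 6, 135690231 to 136150548), which encodes GluN2B, ranged from 2468 to 2848 in Abi3_WT with a median of 2603, and was 2608, 2570, 2667, 2564 and 3082 in Abi3_KO. Of these, 4 lay within the Abi3_WT range and 1 above it, and the log2 fold change was 0.03 (SE 0.0616).

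Grin2c (chromosome 11, 115139992 to 115158525), which encodes GluN2C, was the 1 subunit whose groups did not overlap. It ranged from 81.6 to 133 normalized counts in Abi3_WT with a median of 101, and was 53.5, 70.7, 68.0, 65.5 and 67.1 in the Abi3_KO animals. Every Abi3_KO animal was below the lowest Abi3_WT animal. The means were 102.6 ± 21.7 (SD, n = 6) and 64.97 ± 6.69 (n = 5), with a log2 fold change of -0.65 (SE 0.191). The lowest value was that of Abi3_KO replicate 1, the library with the Cbln3 reads, and without it the log2 fold change was -0.59. The underlying reads were few, 97 to 127 per Abi3_WT library and 51 to 70 per Abi3_KO library. The Benjamini-Hochberg adjusted p of 0.0488 from DESeq2 is among the values with which Grin2c was singled out, and it stood close to the threshold of 0.05.

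Grin2d and Grin3a, with Grin2c the least abundant of the NMDA subunits, had genotypes that overlapped. Grin2d (chromosome 7, 45481304 to 45527802), which encodes GluN2D, ranged from 12.6 to 25.4 normalized counts in Abi3_WT with a median of 18.1, and was 16.8, 9.09, 4.77, 18.1 and 15.9 in Abi3_KO. The log2 fold change of -0.53 had an SE of 0.413, and with 4 to 26 reads per library a difference of this size was not detectable at this depth. Grin3a (chromosome 4, 49661611 to 49845847), which encodes a glycine-binding subunit that lowers calcium entry, ranged from 157 to 284 in Abi3_WT with a median of 241, and was 189, 192, 205, 159 and 164 in Abi3_KO. All 5 Abi3_KO values were below the Abi3_WT median but inside the Abi3_WT range, with a log2 fold change of -0.34 (SE 0.153). Grin2d shares its locus with Kdelr1 on the opposite strand, which had 4385 reads against 185 for Grin2d. Grin3a holds Ppp3r2 and a pseudogene on its own strand, with 54 and 41 reads against 2414. Grin2c overlapped no other counted gene.

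The AMPA subunits differed little by genotype. Gria1 (chromosome 11, 56902153 to 57221080), which encodes GluA1, a subunit inserted into synapses during potentiation, ranged from 1215 to 1653 in Abi3_WT with a median of 1477, and was 1353, 1593, 1286, 1543 and 1234 in Abi3_KO. Gria2 (chromosome 3, 80588757 to 80710538), which encodes the calcium-limiting GluA2, ranged from 3081 to 4199 in Abi3_WT with a median of 3912, and was 3547, 3805, 3581, 3850 and 3653 in Abi3_KO. In both genes the Abi3_KO values lay within the Abi3_WT range, with log2 fold changes of -0.07 (SE 0.0843) and -0.04 (SE 0.069).
Gria3 (chromosome X, 40489476 to 40767490), which encodes GluA3, ranged from 917 to 1371 in Abi3_WT with a median of 1268, and was 1120, 1229, 1337, 1399 and 1452 in Abi3_KO. Gria4 (chromosome 9, 4417604 to 4796326), which encodes GluA4, ranged from 332 to 428 in Abi3_WT with a median of 368, and was 331, 307, 392, 414 and 421 in Abi3_KO. Both pairs of groups overlapped, with log2 fold changes of 0.10 (SE 0.0968) and 0.01 (SE 0.106). The direction fitted for Gria4, Gria2 and Grin2b turned under some alternatives, and in each of these genes it was smaller than its SE.

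In DESeq2, 1 of the 10 subunits was past the adjusted threshold, Grin2c, against 0.539% of all genes tested (95 of 17626, of which 35 or 0.199% were lower and 60 or 0.34% higher in Abi3_KO). The same gene was the 1 of 10 with groups that did not overlap, against 1.04% of all genes tested in either direction and 0.499% lower in Abi3_KO. Because this contrast chose the set, nothing was read from these counts. Of the 10 genes, 6 were fitted lower and 4 higher in Abi3_KO, with a median log2 fold change of -0.05 beside -0.0033 over all genes tested, and 9 were given an adjusted p (Grin2d fell under the mean count of 70.4 below which DESeq2 gives none). The 95% intervals of the log2 fold change reached from -0.23 to 0.009 for Grin1, -0.06 to 0.28 for Grin2a, -0.09 to 0.15 for Grin2b and -0.17 to 0.10 for Gria2. They were wider for the scarcer subunits, from -1.34 to 0.28 for Grin2d and from -0.64 to -0.03 for Grin3a, whose interval left out 0 before adjustment (adjusted p = 0.341 in DESeq2).

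The call of Grin2c depended on the processing. Grin2c was past the threshold in 3 of 11 alternatives, of which 9 gave it an adjusted p, from 0.0466 to 1.00, and it was past it in 0 of 11 fits that each left out 1 animal, of which 5 gave it an adjusted p, from 0.0671 to 0.16. Its direction did not turn in any of these fits. The log2 fold change ran from -0.71 to -0.56 with 1 animal left out and from -0.82 to -0.60 over the 11 alternatives. With the 3 libraries rich in choroid plexus markers left out, it was -0.64 (SE 0.235).

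**Figure D2:**
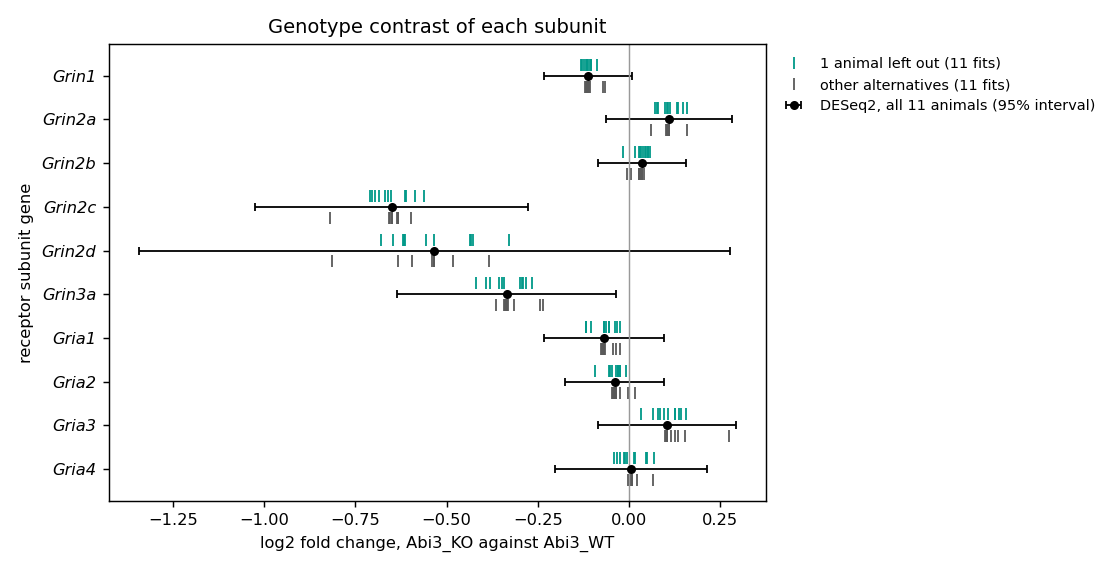
Log2 fold change of each subunit, Abi3_KO against Abi3_WT, with its 95% interval from DESeq2 (black), and the values from 11 fits that each left out 1 animal (green ticks, above) and from 11 other alternatives (grey ticks, below). The Grin2c values all lie between -0.82 and -0.56, whereas those of Grin2b, Gria2 and Gria4 fall on both sides of 0.

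Set against the other subunits within the same animals, Grin2c was lower in Abi3_KO. The log2 of its normalized count (plus 1) minus the mean log2 of the other 9 ranged from -2.98 to -2.36 in Abi3_WT with a median of -2.81, and was -3.53, -3.08, -3.06, -3.33 and -3.26 in Abi3_KO. The groups did not overlap and their means differed by -0.54, a quantity that does not depend on library scaling beyond the added count. Compared with each other subunit singly, the groups stayed apart against Grin1, Grin2a, Grin2b, Gria1, Gria2 and Gria3, with differences of -0.75 (Grin2a) to -0.52 (Grin1). They overlapped against Gria4 (-0.63), Grin3a (-0.33) and Grin2d (-0.04).

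The make-up of the receptor transcripts was compared as shares of reads within each class. Grin2c formed 2.78% ± 0.604 (SD, n = 6) of reads from the GluN2 genes in Abi3_WT and 1.72% ± 0.199 (n = 5) in Abi3_KO, without overlap. Grin2b formed 71.2% ± 2.90 and 71.0% ± 1.65, and Grin2a 25.5% ± 2.44 and 26.9% ± 1.58. Grin2d formed 0.505% ± 0.130 and 0.339% ± 0.149, a difference larger than either SD, although the groups overlapped. The ratio of Grin2b to Grin2a reads was 2.83 ± 0.373 and 2.65 ± 0.223. The 6 NMDA genes summed to 4937 ± 217 and 4909 ± 182 normalized counts and the 4 AMPA genes to 6851 ± 588 and 6769 ± 325, which gave NMDA to AMPA ratios of 0.724 ± 0.0594 and 0.727 ± 0.0448. Within the AMPA genes, Gria2 contributed 55.3% ± 1.27 and 54.5% ± 0.916 of reads, Gria1 21.5% ± 2.21 and 20.7% ± 1.84, Gria3 17.7% ± 1.71 and 19.3% ± 1.66, and Gria4 5.46% ± 0.625 and 5.51% ± 0.709. These shares are of reads not divided by length, and all groups but those of Grin2c overlapped.

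The spread between animals was not the same for each gene or group. In Abi3_WT, Grin1 was the steadiest of the 10, with a coefficient of variation of 3.49%, and in Abi3_KO Gria2 was (3.65%). Grin1 varied by 4.71% in Abi3_KO, and counting alone would give 3.02% and 3.44% for Grin1 in Abi3_WT and Abi3_KO. Grin2a varied by 13.9% in Abi3_WT and 3.69% in Abi3_KO, against 3.13% and 3.29% from counting. Grin2c varied by 21.1% in Abi3_WT against 9.60% from counting, and by 10.3% in Abi3_KO against 13.04%, so its 5 Abi3_KO values lay no further apart than counting error allows. Grin3a varied by 22.3% and 10.8% against 6.28% and 7.79%. A difference in spread between genotypes was not tested.

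**Figure D3:**
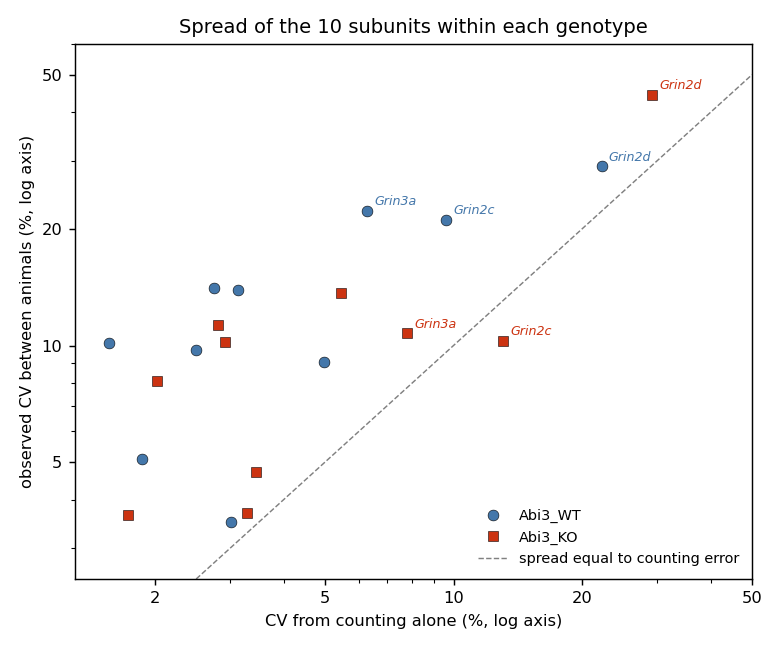
Observed coefficient of variation between animals of each subunit against the value expected from counting alone, both in percent on log axes, for Abi3_WT (circles, 6 animals) and Abi3_KO (squares, 5 animals). Grin2c lies above the line of equality in Abi3_WT (21.1% against 9.60%) and below it in Abi3_KO (10.3% against 13.04%).

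The rest of the glutamate receptor pathway was followed in 5 lists, in which 1 gene was past the threshold in DESeq2. With the marker lists, 4 list genes were past it in DESeq2, 2 in edgeR and 1 in limma, where 0.539%, 0.21% and 0.113% of all genes tested were. The other ionotropic receptors (kainate, delta and GluN3B subunits) had 0 of 7 tested genes past the threshold. An unadjusted p under 0.05, which 8.58% of all genes tested had, was given to 1 of the 7, Grik4. Grik4 encodes a high-affinity kainate subunit and was at -0.56 (SE 0.172) with an adjusted p of 0.0748 in DESeq2. All 7 were fitted lower in Abi3_KO, with a median log2 fold change of -0.17, although Grik5 and Grid1 turned under some alternatives. The 3 most abundant, Grik5, Grik2 and Grid1, were at -0.17, -0.26 and -0.07. Grin3b had 0 to 2 reads per library and was not tested.

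Of the metabotropic glutamate receptors, which signal through G proteins, 0 of 7 tested were past the threshold, and 6 were fitted lower with a median of -0.05. Grm5, the most abundant, had means of 1561 ± 143 (SD, n = 6) and 1528 ± 50.5 (n = 5) normalized counts and a log2 fold change of -0.03, and Grm7 and Grm3 were at -0.05 and -0.12. Of 16 auxiliary subunits of AMPA and kainate receptors, which direct trafficking and gating, 0 were past the threshold, 9 were fitted lower and the median was -0.08. Frrs1l, which is needed for AMPA receptor assembly, was at 0.17 (SE 0.0719), Neto1 at 0.0024 and Cacng2 (stargazin) at 0.03. Across these 2 lists, 3 genes had an unadjusted p under 0.05, which 8.58% of all genes tested had, and all 3 were auxiliary subunits, Cacng4 (-0.35), Cacng5 (-0.51) and Frrs1l, of which Cacng4 and Cacng5 are named here after their values were seen.

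Among 17 scaffolds and signalling partners, Grip1 was lower in Abi3_KO and the other 16 did not pass the threshold. Grip1 encodes a PDZ scaffold that binds the GluA2 and GluA3 tails. It ranged from 118 to 182 normalized counts in Abi3_WT with a mean of 150 ± 22.6 (SD, n = 6), and was 105, 109, 110, 97.1 and 87.6 in Abi3_KO. The groups did not overlap, and the log2 fold change was -0.56 (SE 0.152, adjusted p = 0.0269 in DESeq2). It was not past the threshold in edgeR (adjusted p = 0.132), in limma (adjusted p = 0.203) or without the choroid-plexus-rich libraries, where it was given no adjusted p and the log2 fold change was -0.52. The call was also lost with independent filtering off (adjusted p = 0.0651 in DESeq2). In DESeq2, 8 of the 17 were fitted higher and the median was -0.0066. At an unadjusted p under 0.05, which 8.58% of all genes tested had, there were 5 of the 17. Of these, 3 were fitted higher, Nsf (0.26, SE 0.0895), Dlg3 (0.26, SE 0.105) and Ppp3ca (0.15, SE 0.07), and 2 lower, Grip1 and Pick1 (-0.48, SE 0.229). Nsf and Pick1 encode proteins that bind the GluA2 tail, and Dlg3 encodes the scaffold SAP102. These 4 beside Grip1 are named after their values were seen.

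Of 14 genes that handle glutamate or the co-agonists glycine and D-serine, 13 were tested and 0 were past the threshold in DESeq2. Of the 13, 7 were fitted lower, and the median was -0.02. An unadjusted p under 0.05, which 8.58% of all genes tested had, was given to 1 of them (Slc7a10, a serine and alanine transporter, at -0.45). The astrocytic transporters Slc1a2 and Slc1a3 and the glutamine synthetase gene Glul were the most abundant, at log2 fold changes of -0.02, -0.15 and -0.03. Slc1a2 had means of 9736 ± 517 (SD, n = 6) and 9626 ± 389 (n = 5) normalized counts.

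**Figure D4:**
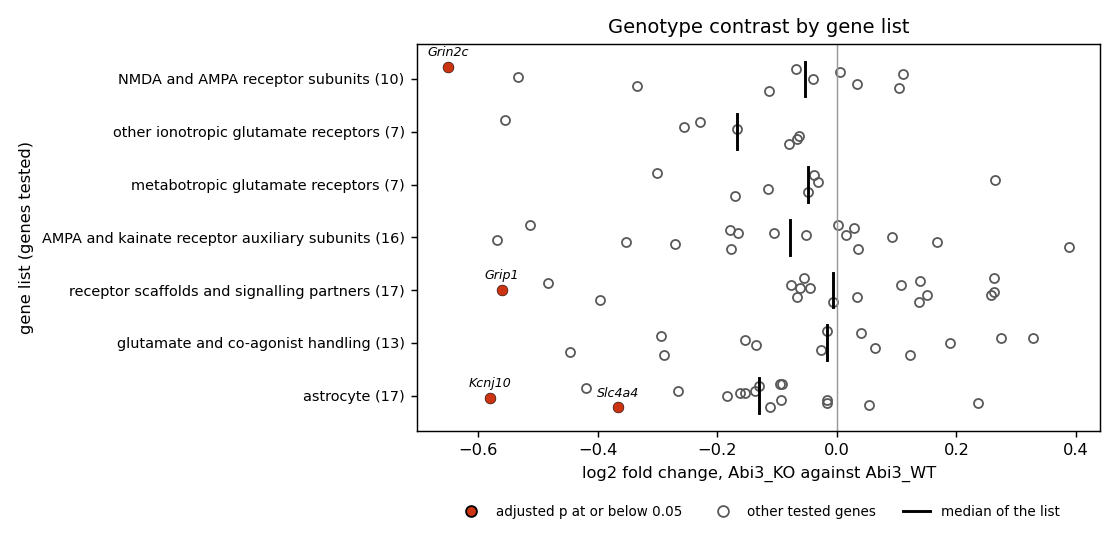
Log2 fold change, Abi3_KO against Abi3_WT, of each tested gene in the receptor set, in the 5 glutamate pathway lists and among astrocyte markers, with filled points at an adjusted p at or below 0.05 and a bar at each list's median. Grin2c, Grip1, Kcnj10 and Slc4a4 are the filled points, all below 0, and the medians lie between -0.17 and -0.0066.

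Because GluN2C is also made by astrocytes, the astrocyte markers are given beside it. Of 17 markers, 2 were past the threshold and both were lower in Abi3_KO, 15 were fitted lower and the median log2 fold change was -0.13. Kcnj10, the potassium channel Kir4.1 of astrocyte membranes, ranged from 320 to 404 normalized counts in Abi3_WT and was 258, 231, 294, 204 and 213 in Abi3_KO, with a log2 fold change of -0.58 (SE 0.114, adjusted p = 0.000436 in DESeq2). Slc4a4, a bicarbonate transporter, ranged from 948 to 1131 and was 708, 727, 881, 931 and 757, with -0.37 (SE 0.0857, adjusted p = 0.00662 in DESeq2). Neither gene's groups overlapped. The call of Slc4a4 was lost in edgeR (adjusted p = 0.0646), in limma (adjusted p = 0.0586) and without the choroid-plexus-rich libraries (adjusted p = 0.128 in DESeq2), whereas Kcnj10 was past the threshold in all 3. At an unadjusted p under 0.05 in DESeq2, which 8.58% of all genes tested had, there were 4 of the 17, all fitted lower. They were Kcnj10, Slc4a4, Fgfr3 (-0.42, SE 0.133) and Ntsr2 (-0.27, SE 0.125). Aqp4 and Gfap, defining markers, were at -0.11 (SE 0.125) and 0.24 (SE 0.135), and Gfap was 1 of the 2 markers fitted higher. In bulk tissue, fewer cells of a type and less RNA per cell cannot be told apart.

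The Grin2c groups did not overlap relative to these markers either. It gave 4.49 ± 0.824 (SD, n = 6) reads per 1000 astrocyte marker reads in Abi3_WT and 2.67, 3.32, 3.06, 2.97 and 3.09 in Abi3_KO, all below the lowest Abi3_WT value of 3.69. On the log2 scale, relative to the mean of the 17 markers, the means differed by -0.49. On deviations from the genotype means, Grin2c correlated with Kcnj10 at r = 0.15, with Slc4a4 at 0.298 and with Grip1 at -0.245 over 11 animals. With the oligodendrocyte marker Cldn11, which was fitted higher in Abi3_KO, it correlated at 0.858. The part of astrocyte content in the Grin2c difference was not tested.

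The other cell type lists held 1 gene past the threshold between them. Of the neuronal, oligodendrocyte precursor, microglial, vascular, thalamic, cerebellar, striatal, hippocampal and choroid plexus lists, none had a gene past the threshold in DESeq2. At an unadjusted p under 0.05, which 8.58% of all genes tested had, they held 1 pan-neuronal gene (higher) and 1 vascular gene (lower). The called gene was 1 of 6 oligodendrocyte markers, Cldn11, which encodes a tight junction protein of myelin and was higher in Abi3_KO (log2 fold change 0.53, SE 0.13, adjusted p = 0.0106 in DESeq2). Its call held in edgeR (adjusted p = 0.0403) and was lost in limma (adjusted p = 0.0586) and without the choroid-plexus-rich libraries (adjusted p = 0.125 in DESeq2). All 7 striatal markers were fitted lower, with a median of -0.18 and sums of 2481 to 3675 normalized counts in Abi3_WT and 2367 to 3523 in Abi3_KO.

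The share of reads outside genes also moved with genotype. Reads outside genes are here those that matched no counted feature of a gene, so they may include intronic or antisense reads within genes. Per 100 reads in genes there were 59.3 to 68.8 of them in Abi3_WT (median 66.9) and 52.8, 49.8, 53.7, 62.5 and 51.1 in Abi3_KO. The means were 65.9 ± 3.67 (SD, n = 6) and 54.0 ± 4.99 (n = 5), and they differed in a two-sided exact permutation test over 462 splits (p = 0.00649, smallest possible 0.00216). With this measure as a covariate in DESeq2, Grin2c had a log2 fold change of -0.82 (SE 0.36), 0 of the 10 subunits were past the threshold, and 3 of all genes tested were. Under the same covariate Kcnj10 was at -0.59 (SE 0.215), Slc4a4 at -0.16 (SE 0.147), Grip1 at -0.40 (SE 0.284) and Cldn11 at 0.61 (SE 0.242), and no gene of these 4 was past the threshold. The part of this measure in the subunit differences was not tested further.

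**Figure D5:**
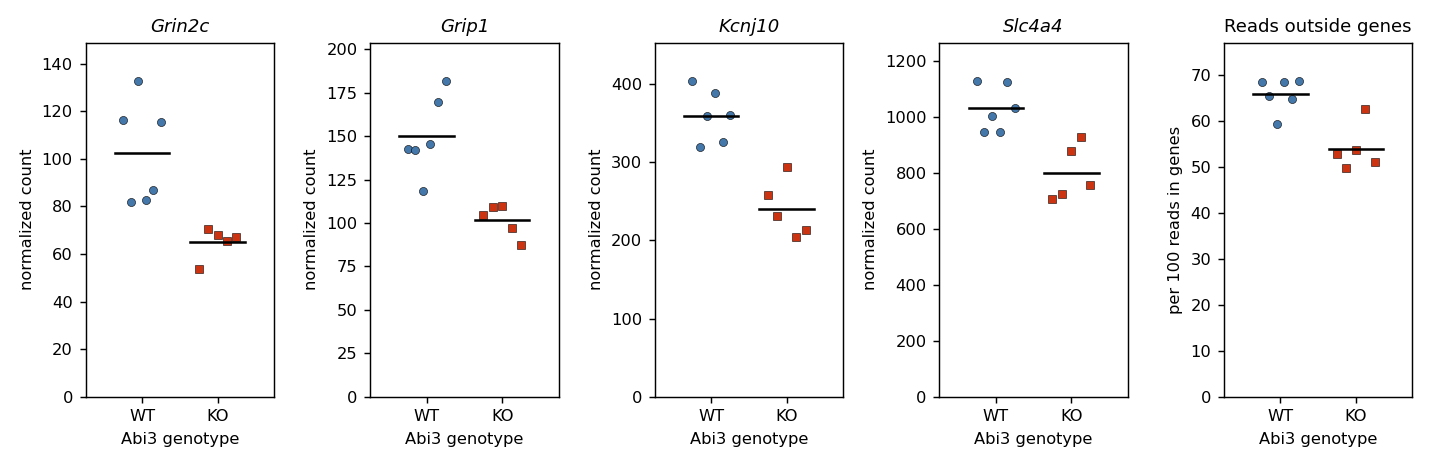
Per-animal values of Grin2c, Grip1, Kcnj10 and Slc4a4 (normalized counts) and of reads outside genes per 100 reads in genes, each axis from 0, with Abi3_WT circles, Abi3_KO squares and a bar at the group mean. The 4 genes show no overlap between genotypes, and the last panel shows an overlap through the Abi3_KO animal at 62.5.

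Grin2c and Gria1 lie on the same chromosome as Abi3, 19.4 Mb and 38.5 Mb from it, and in this design the deletion and variants linked to the targeted allele cannot be told apart. Within 0.25 Mb of Grin2c, 14 protein-coding genes averaged 10 or more normalized counts. In DESeq2, 0 of the 14 were past the threshold and 0 had an unadjusted p under 0.05, although only 5 had enough reads to be given an adjusted p. Their log2 fold changes ran from -0.33 (Fdxr, ferredoxin reductase, 319 bases away) to 0.68 (Cd300c2), with a median of 0.18. The best measured of them, Atp5pd, a subunit of ATP synthase, and Hid1 were at 0.15 (SE 0.111) and -0.11 (SE 0.117), and their groups overlapped.

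Genes whose deviations from the genotype means followed those of Grin2c most closely were sought among the 5096 genes that averaged 100 or more normalized counts. They were Zftraf1 (Pearson r = 0.91 over 11 animals), Prex2 (0.885), Spag9 (0.879), Kcnj9 (0.873) and Upf1 (0.872). Their own log2 fold changes were 0.23, -0.09, -0.01, -0.08 and -0.09, and no gene of these 5 was past the threshold. Of the other subunits that met this limit, Gria2 was the most alike (0.618), and Grin3a (-0.297) and Grin2b (-0.289) were the least. Grin2d fell under the limit and was not compared. The values are a description over animals that share the scaling of each library, and were given no p.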

How the data were processed

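Cortical RNA of 11 mice was made into QuantSeq 3′ libraries. Per the study's methods, the authors trimmed adapters and poly(A) stretches, aligned reads with STAR (2.7.3a) to GRCm39 and counted them per Ensembl gene on the sense strand with HTSeq (0.9.1). The deposited files hold raw counts for each gene and animal, with no step that collapses PCR copies stated. Of 53700 identifiers, 52610 matched GENCODE M39, which gave symbols, positions and sequences. The pore sequence of 1 subunit is not reported here.

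Differential expression used DESeq2 (1.42.0, R 4.3.3) with genotype as the only term, at least 10 counts in total, a mean of at least 1.5 and an adjusted p (Benjamini-Hochberg, over all genes tested) at or below 0.05, with independent filtering aimed at the same value. Values are normalized counts (median-of-ratios size factors). Replicates are separate animals per the labels, and p-values measure the spread between them. The fit was tested on simulated data. The members, lists and tests were chosen with earlier results of these data known. Named were Abi3, the 10 subunits, pathway genes past the threshold or otherwise the 3 most abundant of a list, markers past the threshold, the neighbours of Grin2c and the 5 genes most like it. Grik4, Slc7a10, Cacng4, Cacng5, Nsf, Dlg3, Ppp3ca, Pick1, Fgfr3, Ntsr2, Aqp4 and Gfap were named after their values were seen.

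Alternatives were edgeR (4.0.16, quasi-likelihood), limma (3.58.1, voom with quality weights), TMM factors, 2 low-count filters, 2 settings of independent filtering, a replicate block, reads outside genes as covariate, 1 surrogate variable (sva 3.50.0) and each animal left out. Leaving out the 3 libraries rich in choroid plexus markers (sum over 2 times the median) was added after seeing the data.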

Additional observations from a re-analysis of the deposited data

Results flagged for a closer look

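In 84 groups of values, each 1 measure in 1 genotype, 2 had an animal far from the rest by Dixon's test, where chance gives about 4.2. Both came from the same animal, Abi3_KO replicate 5, in which Grin2b, the most abundant NMDA subunit, was at 3082 normalized counts with the next Abi3_KO animal at 2667. The 6 NMDA subunits together reached 5231 normalized counts in this animal, with the next at 4864. This library was also 1 of the 3 rich in choroid plexus markers, and the part of that in its Grin2b level was not tested.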

How the results depend on the processing

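The number of genes past the threshold was 95 with DESeq2, 37 with edgeR (23 shared with the 95), 20 with limma (17 shared), 57 with independent filtering off (46 shared), 3 with reads outside genes as a covariate, 27 without the choroid-plexus-rich libraries (25 shared) and 46 to 120 with 1 animal left out. The number of receptor subunits past it was 1, Grin2c, and it was 0 in edgeR, in limma, with independent filtering off, with no low-count filter, with 1 surrogate variable, with the covariate, without the choroid-plexus-rich libraries and with any 1 animal left out (0 to 0). At an unadjusted p under 0.05, which 8.58% of all genes tested had, DESeq2 gave 2 of the 10 subunits, Grin2c and Grin3a. Because this contrast chose the set, nothing was read from that count. Of the list genes 4 were past the adjusted threshold, 2 in edgeR, 1 in limma, 0 with the covariate, 1 without the choroid-plexus-rich libraries and 1 to 6 with 1 animal left out. Grip1 lost its call without Abi3_WT replicate 5 or 6 or Abi3_KO replicate 2 or 4 (adjusted p = 0.0524 to 0.124 in DESeq2) and with independent filtering off, and was given no adjusted p without Abi3_WT replicate 1 or 2 or Abi3_KO replicate 5, or with the block. Slc4a4 lost its call in edgeR and limma, and Cldn11 in limma, and Cldn11 and Kcnj10 were given no adjusted p without Abi3_WT replicate 2 or with the block. With the choroid-plexus-rich libraries left out, Slc4a4 and Cldn11 lost theirs too (adjusted p = 0.128 and 0.125 in DESeq2).

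The replicate number as a block gave 30 genes (23 shared with the 95), 0 subunits and 2 list genes past the threshold, and -11.3 for the difference in reads outside genes (exact sign-flip p = 0.0625, the smallest 5 pairs allow). Same-numbered animals deviated together with correlations of -0.0048 to 0.0656, so the numbers do not pair the animals.

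Directions turned for genes with small fold changes. With the covariate, log2 fold changes turned to -0.0058 (Grin2b), 0.0155 (Gria2), 0.0321 (Grid1), 0.0718 (Grm7), -0.24 (Cacng2) and 0.18 (Glul). Glul was also at 0.00022 with the surrogate variable and 0.032 with the block. Gria4 was at -0.0019 with TMM factors and -0.0012 in limma, Neto1 at -0.0047, -0.0014 and -0.0047 with TMM factors, edgeR and limma, and Grik5 at 0.018 without the choroid-plexus-rich libraries. With 1 animal left out, the ranges crossed 0 for Grin2b (-0.0164 to 0.0584), Gria4 (-0.0403 to 0.069), Grid1 (-0.15 to 0.0428), Grm5 (-0.0595 to 0.0176), Neto1 (-0.0425 to 0.0643), Cacng2 (-0.0632 to 0.0995), Slc1a2 (-0.0375 to 0.0079) and Glul (-0.0817 to 0.0334). The cause was not tested in any of these.

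The difference of Grin2c against the other 9 subunits kept its direction in every alternative run, from -0.62 against their summed counts to -0.46 against the other 5 NMDA subunits. Depth limited Grin2d most, at 4 to 26 reads per library.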
